A study of Mus musculus with 2 samples.

Results

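mmu-miR-320, mmu-miR-484 and mmu-miR-877, written below without the species prefix, are mouse microRNAs (miRNAs) whose precursors are known to form without the nuclease Drosha, and here they were followed in vesicles shed by fat cells in culture. They were taken by name, leaving out passenger-strand entries marked with an asterisk, and make up 3 of the 567 mouse miRNAs on the array and 8 of its 1672 mouse probes, with 60 spots on each array. miR-877 gave a clear signal in both collection windows and was 1.46-fold higher in the late one, short of the 2-fold threshold and its log2 difference of 0.55 fell to 0.041 when all probes set the scaling. miR-320 was detected near the lower limit of the assay, with a small difference whose sign turned with the scaling. miR-484 did not reach the detection rule in either window.

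The vesicles came from 3T3-L1 cells, an established mouse preadipocyte line that fills with lipid after hormonal induction. All cells were kept in high-glucose medium with 10% fetal calf serum and differentiation was induced with 3-isobutyl-1-methylxanthine (0.5 mM), dexamethasone (0.25 µM) and insulin (10 µg/ml). Medium conditioned for 48 h was harvested in an early window (day 2-4) and a late window (day 8-10), vesicles were spun down by ultracentrifugation, and 100 ng of their total RNA was hybridised to a 1-colour Agilent miRNA array. Each window had 1 array, so there was no replicate check and no p-value could be given, and the number of arrays limits the precision. Errors are the spread over spots within 1 array and are technical only. Preparation, hybridisation and window cannot be told apart, and neither can the number of vesicles and the amount of miRNA in each. Serum also carries miRNAs, and its part in the signals was not tested.

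In the usual route, Drosha cuts a hairpin out of a long primary transcript in the nucleus and Dicer then trims the hairpin to the mature miRNA. Members of this group skip the first cut. The hairpin of miR-877 is a mirtron, a short intron that splicing releases with ends that already suit Dicer. miR-320 and miR-484 are known to come from short transcripts that start at the hairpin itself, carry a 5′ cap and go straight to Dicer. miR-320 has been studied in insulin-resistant fat cells, and miR-484 is known to repress Fis1, a factor of mitochondrial fission.

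The mature sequences are shown for their seeds, the stretch of bases 2 to 8 that pairs with target messages. The table of RefSeq (GRCm38.p6) sequences used here held 2 of the 3 members, and miR-320 was not among them. The seed is in capitals.
miR-484: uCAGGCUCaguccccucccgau
miR-877-5p: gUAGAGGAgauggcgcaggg
miR-877-3p: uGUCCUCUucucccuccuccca
miR-484 lies on the plus strand at chr16:14159630-14159651, and the miR-877 arms lie on the minus strand at chr17:35960795-35960814 (5p) and chr17:35960731-35960752 (3p), all in GRCm38.p6. None of these seeds occurred in another of the 1674 distinct mature mouse sequences of that table. G and C made up 63.6% of miR-484, 65.0% of miR-877-5p and 59.1% of miR-877-3p. Of the 1674 mature sequences, 82.3% had a lower G and C content than miR-484 and 86.8% a lower one than miR-877-5p.

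The precursor of miR-877 shows the mark of a spliced intron, and it is printed with its first 2 and last 2 bases in capitals.
Mir877 hairpin: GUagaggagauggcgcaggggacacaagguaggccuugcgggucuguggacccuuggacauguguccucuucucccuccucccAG
It runs over 85 bases on the minus strand at chr17:35960730-35960814, opens with GU and closes with AG, the bases that bound most introns, and the 5p arm starts at its first base. Its gene lies inside Abcf1, which encodes an ATP-binding factor of translation. Of 1005 mouse hairpins in the table, searched as given on their own strand, 30 (2.99%) opened with GU and closed with AG. These 30 also include Mir20a and Mir194-2, which are not known as mirtrons, so the match describes the ends and is no proof of the route. The hairpin of miR-484 did not hold these ends, and its mature arm starts after 4 bases. Neither Mir484 nor Mir320 lay inside another gene of the GRCm38.p6 table, where the nearest coding genes were Marf1 for Mir484 and Polr3d, a subunit of RNA polymerase III, for Mir320.

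Each entry was read by several probes that start from the same base and differ in how far they reach along the miRNA. In the files, which name no genome build, the miR-877 probes start at position 36097740 of chromosome 17 and span 10, 11, 12 and 13 bases. Those of miR-320 start at position 70843385 of chromosome 14 and span 12 and 13 bases, and those of miR-484 start at 14159744 of chromosome 16 and span 15 and 16 bases. The start positions of the miR-877 and miR-877* probes lay 64 bases apart in the files, as did the 3′ ends of both arms in RefSeq. Read from the 3′ end in this way, the miR-877 probes cover from base 11, 10, 9 or 8 through base 20 of the mature miRNA. Signals of different probes are not amounts and are not compared with each other below.

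Background was low on both arrays. Negative control spots averaged -0.288 ± 0.983 intensity units (SD, 660 spots) at day 2-4 and -0.326 ± 1.02 (SD, 656 spots) at day 8-10, with highest values of 2.70 and 2.83. The dimmest mouse miRNA spot that the scanner software flagged as well above background had 5.21 units at day 2-4 and 5.39 at day 8-10. A probe was called detected where more than 0.5 of its spots carried this flag, and 1 such probe was enough for its miRNA. By this rule 145 of 567 miRNAs (25.6%) were detected on both arrays and 177 (31.2%) on at least 1, and 2 of the 3 members, miR-320 and miR-877, were among the first. No spot was saturated. The adipocyte list of miR-103, miR-107, miR-143, miR-378 and miR-210 was detected in full on both arrays, and 4 of these 5 were higher at day 8-10 by 2-fold or more (1 of 5 with normexp, and 1 of 5 with the percentile over all probes, the difference staying positive for all 5), beside 23 (15.9%) of the 145 miRNAs detected on both arrays. Of 7 blood and serum miRNAs, 3 were detected at day 2-4 and 4 at day 8-10, with a summed gene signal of 1000 and 921 units. Nearly all of this sum was miR-451, with 970 units at day 2-4 and 885 at day 8-10. None of the 1 liver, 4 muscle and 2 neural entries was detected.

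**Figure D1:**
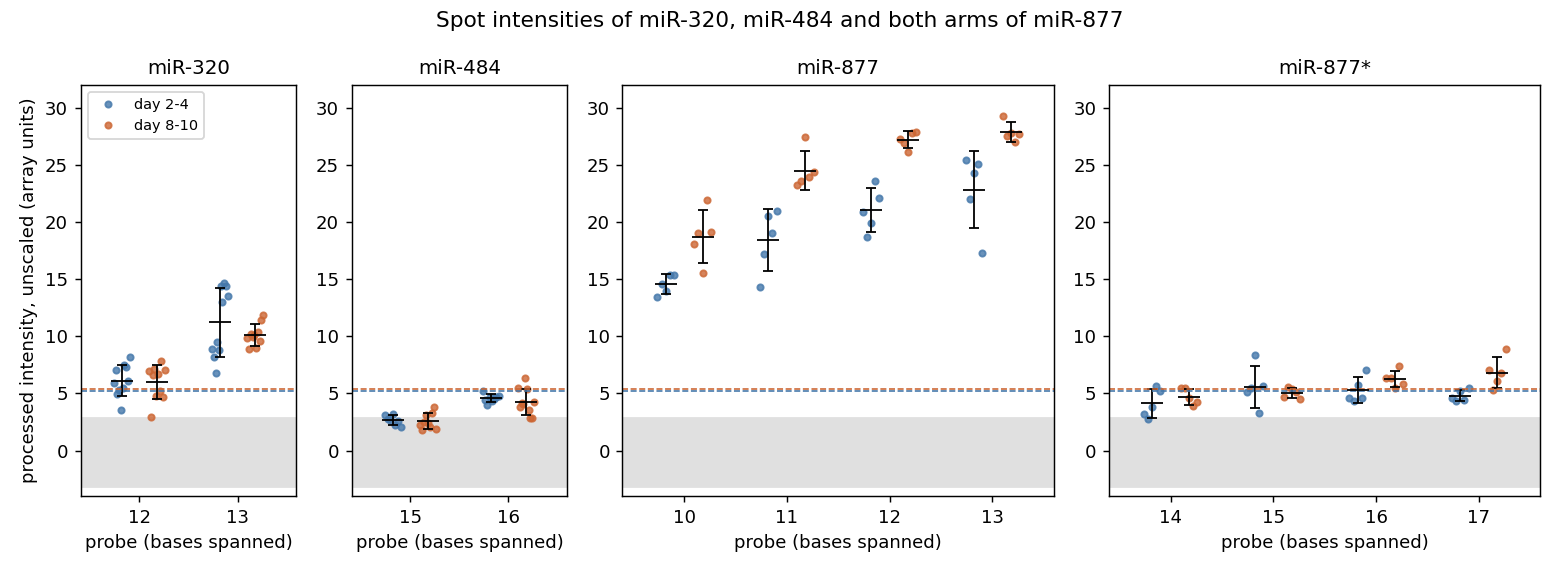
Processed intensity of each spot before scaling (y axis, array units) for the probes of miR-320, miR-484, miR-877 and its passenger strand miR-877*, named by the bases they span (x axis). Points are spots that were not outliers, black marks give mean ± SD, grey spans the negative control spots, and dashed lines mark the dimmest spot flagged as well above background on each array. For miR-877 the day 8-10 spots lie above the day 2-4 spots at each of the 4 probes, whereas the windows overlap for miR-320 and miR-484.

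miR-877, the mirtron product, was the member with all spots well above background, 20 of 20 in each window. At the 10-base probe the intensity was 14.6 ± 0.890 (SD, 5 spots) at day 2-4 and 18.7 ± 2.29 at day 8-10. The 11-base probe gave 18.4 ± 2.72 and then 24.5 ± 1.67. These are values as scanned, before any scaling between arrays. The 12-base probe gave 21.1 ± 1.89 at day 2-4 and 27.2 ± 0.727 at day 8-10. At the 13-base probe the values were 22.8 ± 3.36 and 27.9 ± 0.879. At each of the 4 probes the lowest late spot was above the highest early spot, the closest pair being 15.4 and 15.5 at the 10-base probe. Such separation was common on these arrays. Of the 279 probes detected on both, 31.5% had all late spots above all early ones and 33.0% the reverse. Of 15 miRNAs with 4 probes detected on both arrays, 4 (26.7%) had all late spots higher at every probe.

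After scaling each array to the 75th percentile of the probes detected on both, miR-877 had a log2 difference of 0.55 (day 8-10 minus day 2-4, spot SE 0.046), which is 1.46-fold. The 4 probes gave 0.54, 0.61, 0.56 and 0.49, a narrow range. Over all detected miRNAs with several probes in use, 13 of 121 (10.7%) had probes of opposite sign. A miRNA counted as changed when it differed by at least 2-fold and by more than 2 spot SE, and by that rule 23 of the 145 (15.9%) were higher and 11 (7.59%) lower. These counts became 10 and 29 when all probes set the percentile, and 5 and 5 with normexp. miR-877 was in none of these counts. The median miRNA had a log2 difference of 0.20, and miR-877 lay 0.35 above it, with 101 of the 145 miRNAs below its value. The difference fell to 0.041 when the percentile was taken over all probes, a scaling that lowered the median of all miRNAs by 0.51. Such a scaling shifts all miRNAs of an array alike, so the 0.35 above the median could not change and is no check. With normexp background correction, which compresses dim signals, miR-877 had a difference of 0.22 and lay 0.094 above the median.

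The passenger strand, miR-877*, comes from the other arm of the same hairpin and was close to the detection limit. It had 9 of 20 spots well above background at day 2-4 and 12 of 20 at day 8-10. Its 15-base probe averaged 5.56 ± 1.82 units (SD, 5 spots) at day 2-4 and 5.06 ± 0.439 at day 8-10, and it passed the detection rule only in the early window. The 16-base probe averaged 5.27 ± 1.14 and then 6.27 ± 0.729, and the 17-base probe 4.81 ± 0.512 and then 6.83 ± 1.32. Those probes passed only in the late window, so no probe was detected on both arrays. No log2 difference is given for miR-877*, since each value would rest on a probe that was not detected in 1 of the windows.

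miR-320 was detected by both probes in both windows, at intensities near the detection limit. The 12-base probe ranged from 3.56 to 8.20 around a median of 6.03 at day 2-4 and from 2.96 to 7.85 around 6.63 at day 8-10, with 8 and 6 of 10 spots well above background. The 13-base probe ranged from 6.81 to 14.7 around 11.2 at day 2-4 and from 8.92 to 11.9 around 10.0 at day 8-10, with all 10 spots well above background in each window. The windows overlapped at both probes. As scanned, the late mean was 0.978 of the early mean at the 12-base probe and 0.903 of it at the 13-base probe. After scaling, the log2 difference was 0.16 (spot SE 0.086), and the probes gave 0.24 (spot SE 0.10) and 0.084 (spot SE 0.14). Spots under the lowest detected probe of an array (4.86 units at day 2-4, 5.55 at day 8-10) were raised to that floor. At the 12-base probe this affected the spots at 2.96, 4.65, 4.75 and 5.25 at day 8-10 and the spot at 3.56 at day 2-4. With the floor at 1 unit, the log2 difference of miR-320 was 0.11. The sign turned with the scaling. It was negative without scaling between arrays (-0.023), with the percentile over all probes (-0.35), with quantile normalization (-0.31), with the median in place of the 75th percentile (-0.10) and with the gene signal summed by the scanner software (-0.12). Relative to the median of all 145 miRNAs, miR-320 lay at -0.042, with 66 of them below it.

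The early miR-320 spots split by their place on the array. At the 13-base probe the 5 spots in array rows 1 to 96 read 6.81 to 9.53 (mean 8.44) at day 2-4, and the 5 spots in rows 97 to 192 read 13.0 to 14.7 (mean 14.0), with no overlap. On the day 8-10 array the same positions read 8.92 to 10.2 (mean 9.80) and 8.95 to 11.9 (mean 10.5). The 12-base probe followed the same direction at day 2-4, with means of 5.36 and 7.27, against 5.85 and 6.20 at day 8-10. On the log2 scale the early gap was 0.74 at the 13-base probe, and 2 of 244 detected probes with at least 2 spots in each part had a larger one. The median gap over those probes was 0.033 at day 2-4 and -0.0058 at day 8-10. From rows 1 to 96 alone miR-320 had a log2 difference of 0.38 between the windows, and from rows 97 to 192 alone -0.073, so the direction was not the same in both parts. miR-877 had 0.65 and 0.58 in these parts, which do not rest on the same probes. Its 13-base probe had 0 spots in rows 1 to 96, and its 12-base probe had 1 spot in rows 97 to 192. Early spots of miR-877 also split at the 11-base probe, reading 14.3 to 17.2 and then 19.0 to 21.0 without overlap. That log2 gap was 0.36, and 14 of the 244 probes had a larger one.

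**Figure D2:**
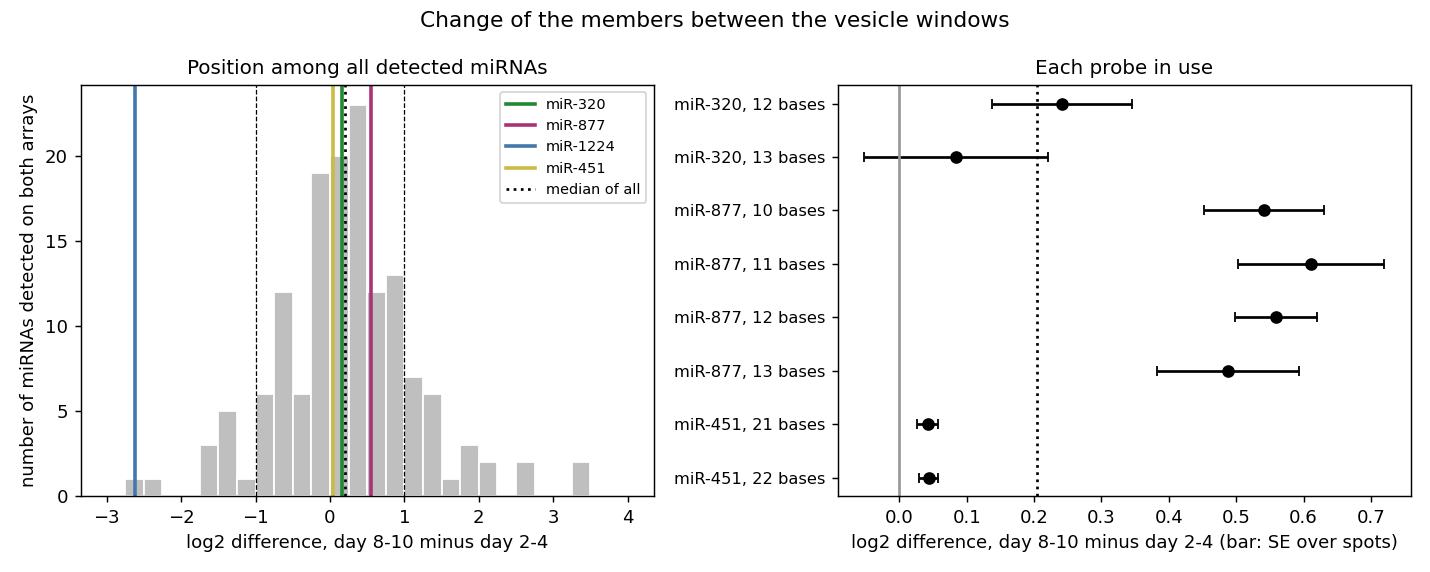
Log2 differences, day 8-10 minus day 2-4, after scaling. The left panel is a histogram over all 145 miRNAs that both arrays detected, with coloured lines for miR-320 (0.16), miR-877 (0.55), miR-451 (0.043) and miR-1224 (-2.62), a dotted line at the median (0.20) and dashed lines at 2-fold, and the right panel shows each probe in use with its SE over spots. The 4 probes of miR-877 lie together above the median, and those of miR-320 lie on either side of it.

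miR-484 stayed under the detection rule in both windows and has no fold change. Of its 20 spots, 5 were flagged as outliers at day 2-4 and 1 at day 8-10, and were left out. The 15-base probe then averaged 2.66 ± 0.427 units (SD, 7 spots) at day 2-4 and 2.56 ± 0.692 (9 spots) at day 8-10. The 16-base probe averaged 4.57 ± 0.353 (8 spots) and 4.28 ± 1.15 (10 spots). The windows overlapped at both probes, and only 3 of the spots kept, all of the 16-base probe at day 8-10, were flagged as well above background, the highest at 6.33. The spots kept still read above most negative control spots. All 15 kept at day 2-4 and all 19 at day 8-10 exceeded the level that 97.5% of control spots stayed under. That level was 1.61 and 1.74 units, from spots of only 7 control probes on each array, and 11 and 13 of the kept spots exceeded the highest control spot. Among the outliers left out, those at 0.916 and -0.396 (day 2-4) and -0.95 (day 8-10) were below that level. The other outliers, all at day 2-4, read 2.59, 3.27 and 6.35. miR-702, also under the detection rule, had 15 of 20 and 13 of 19 spots above the level in the same windows. The share of all mouse spots above it was not tested, so these counts cannot set miR-484 apart from other dim entries. The scanner software, whose own gene-level flag is more lenient, marked miR-484 as detected on both arrays, as it did 30.0% of all mouse miRNAs, with gene signals of 4.78 ± 1.04 and 4.55 ± 1.07 (the software's error).

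The gene signals of the software put the other members in the same picture. For miR-877 it gave 25.4 ± 1.47 at day 2-4 and 32.8 ± 1.81 at day 8-10, and for miR-320 11.5 ± 1.31 and 10.7 ± 1.29. Without scaling, miR-877 was thus higher in the late window by more than the sum of these errors, and miR-320 and miR-484 were lower by less than the error of either value.

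miR-877 and miR-320 were compared directly, because a common scaling cancels in the gap between them. The log2 difference of miR-877 exceeded that of miR-320 by 0.39 (spot SE 0.098) and by 0.11 to 0.65 over all settings tried, being smallest with normexp. The gap was larger than 2 spot SE, but with 1 array a window it has no replicate check. Over these 2 arrays, the other miRNAs with the closest log2 differences were miR-712 (0.55) and miR-34c (0.52) for miR-877, and miR-21 (0.16) and miR-324-3p (0.17) for miR-320.

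The list of further miRNAs of unusual origin held miR-1224, miR-702, miR-451 and miR-877*, which is described above. miR-1224, a mirtron whose hairpin also opens with GU and closes with AG, had a log2 difference of -2.62 (spot SE 0.018), which is 6.16-fold lower in the late window, the lowest value among the 145 miRNAs and opposite in sign to that of miR-877. The software gave miR-1224 a gene signal of 61800 units at day 2-4 and 10500 at day 8-10. For miR-877 it gave 25.4 and 32.8, but these signals come from different probes and are not relative amounts of the 2 miRNAs. The probes of miR-1224 gave -3.27 to -2.12, and with quantile normalization its difference was -1.31. The gap between these mirtrons was 3.17 on the log2 scale (spot SE 0.050) and at least 1.53 in every setting tried. miR-702, listed here as a further mirtron although its RefSeq hairpin of 109 bases opens with CG and closes with CC, did not reach the detection rule on either array, with probe means from 1.33 to 4.22 units at day 2-4 and from 1.68 to 3.12 at day 8-10. At day 2-4, 1 of its 20 spots was well above background and the software's gene-level flag marked it as detected, and at day 8-10 neither was the case. miR-451, which uses Drosha but is cut by the protein Ago2 in place of Dicer and is known from red blood cells, had a log2 difference of 0.043 (spot SE 0.011), and its sign turned with the scaling (-0.47 with the percentile over all probes). Of the 3 further entries detected on both arrays, miR-877* among them through different probes, 1 passed the 2-fold rule, beside 23.4% of all 145 such miRNAs.

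**Figure D3:**
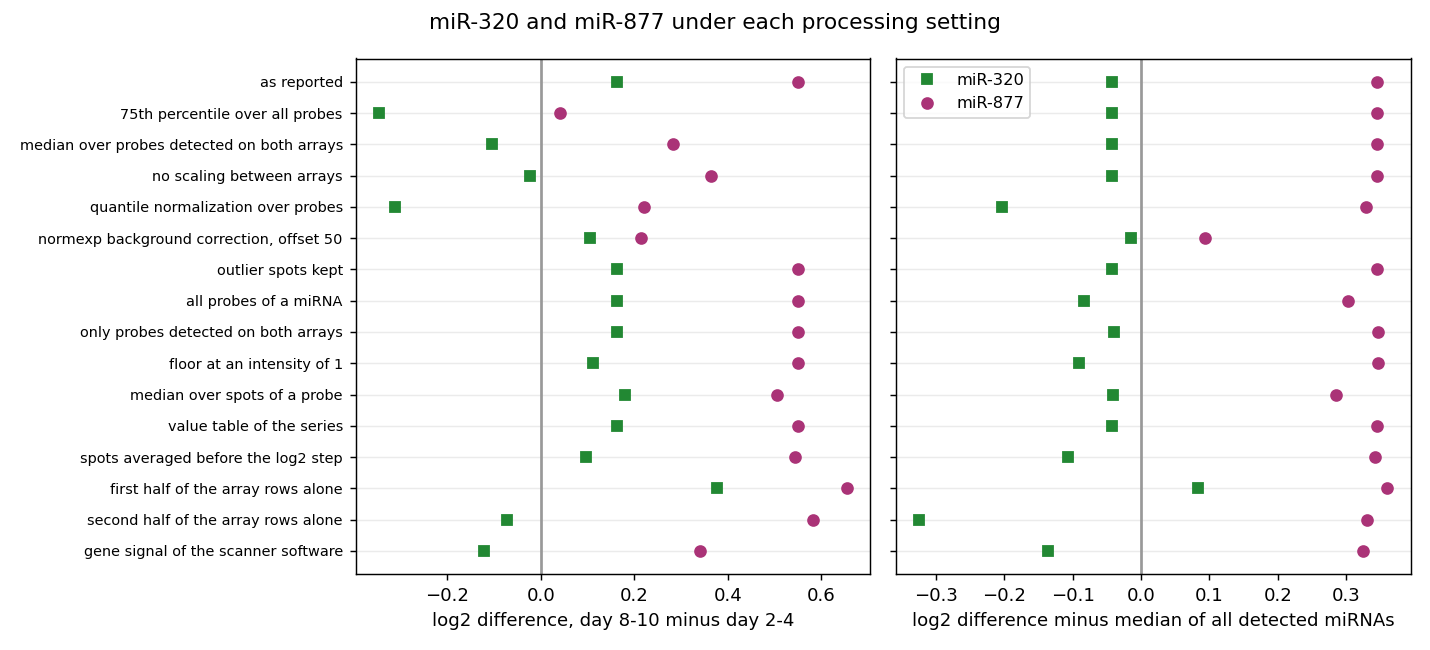
Log2 difference of miR-320 (squares) and miR-877 (circles), day 8-10 minus day 2-4, under each processing setting (rows), as such (left) and minus the median of all detected miRNAs under that setting (right). miR-877 lies right of 0 in all rows of both panels, from 0.041 to 0.65 on the left, and miR-320 lies on either side of 0 on the left, from -0.35 to 0.38. On the right, settings that differ only in a common scaling hold the same value by construction.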

How the data were processed

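Per the file headers, the authors read 1-colour arrays with Agilent Feature Extraction 9.5.3.1, and the deposited intensity of a spot is linear: its mean less a fitted background surface, not normalized between arrays. The software's gene signal and its flags were deposited too. The authors' value table held the same intensities for 24986 of 24986 spots (medians 0.516 and 0.646), so it was linear and not centred.

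Control and outlier spots (237 and 249 mouse miRNA spots) were left out. Intensities were divided by the array's 75th percentile over 279 probes detected on both arrays (108 and 95.2 units), floored at the lowest detected probe (4.86 and 5.55), log2 transformed and averaged per probe, then over the miRNA's probes detected on at least 1 array. Python 3.11.15 and, for normexp (offset 50), limma 3.58.1 were used. The calculation was tested on simulated arrays. Sequences and gene names came from RefSeq.

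Members, lists and thresholds were chosen with earlier results of these data known. Named were the members, the listed noncanonical entries and, for each detected member, the 2 miRNAs with the closest difference. Other scalings, background correction, signals, probes, floors and averaging, and separate parts of the array, were tried. The split of the array into rows 1 to 96 and 97 to 192 was chosen after seeing the data, as was leaving out the difference of miR-877*, which stays in the counts over all miRNAs.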

Additional observations from a re-analysis of the deposited data

How the results depend on the processing

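The size of each change depended on the scaling and background correction, and the cause was not tested. miR-877 was positive under all 15 alternatives, though some could not move it. It had no outlier spot, no spot under the floor and all 4 probes detected on both arrays. Keeping outliers, changing the floor or the choice of probes, and using the value table therefore left it at 0.55. Its log2 difference of 0.55 moved by more than the spread between spots (0.21) under 5 of them: 0.041 with the 75th percentile over all probes, 0.28 with the median over detected probes, 0.22 with quantile normalization, 0.22 with normexp and 0.34 with the software's gene signal. miR-320 was positive under 9 and negative under 6, and moved by more than its spread (0.38) with the percentile over all probes (-0.35) and with quantile normalization (-0.31). Keeping outliers, changing the choice of probes and using the value table could not move miR-320 either, and left it at 0.16. The counts of miRNAs at least 2-fold higher and lower were 23 and 11, 10 and 29 with the percentile over all probes, 5 and 5 with normexp, 16 and 19 with the median scaling, 17 and 17 with quantile normalization and 19 and 17 with the gene signal. With every spot required to be well above background, 1 of the 2 miR-320 probes was detected in each window, in place of 2. With 1 such spot enough, 1 probe of miR-484 was detected at day 8-10, in place of 0. Averaging spots before the log2 step, and the separate array parts, were added after seeing the data. No log2 difference was formed for miR-484 or miR-702, which were not detected, or for miR-877*, which had no probe detected on both arrays. No paired analysis was possible because each window has 1 array. Signal over background limits miR-320, miR-484 and miR-877*.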
